A study of Mus musculus with 47 samples.

Results

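Described here are 10 genes of the neuromuscular junction of muscle, out of 45706 genes in the deposited transcript tables of C2C12 cells, a mouse myoblast line that fuses into myotubes when serum is withdrawn. They were chosen by symbol and fall into 2 sets. Chrna1, Chrnb1, Chrnd, Chrng and Chrne encode the subunits of the muscle nicotinic acetylcholine receptor. Agrn, Lrp4, Musk, Dok7 and Rapsn encode agrin and the postsynaptic complex that clusters the receptor. All 10 had reads, and 9 passed the filter on low counts in every comparison, while Chrne passed it in only some of them.

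The study asked how raising the dose of the muscle transcription factor MyoD1 changes differentiation. Poly(A) RNA was sequenced from 47 libraries in 16 groups, 15 of them with 3 replicates and 1 with replicates 2 and 3 only. The line iMyoD1 carries endogenous MyoD1 and a Halo-MyoD1 transgene under a doxycycline (dox) inducible promoter, and the lines iMcam and iCdh23 carry inducible Mcam and Cdh23, which encode cell adhesion proteins. Each group exists with dox and without it.

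The iMyoD1 groups were sampled in growth medium after 24 h of dox or vehicle (0 h of differentiation), and after 24, 48 and 120 h of differentiation. At 120 h, whole cultures were sequenced, as were a myoblast-enriched fraction that passed a 40 µm filter and a myotube-enriched fraction that it retained. The group with 2 libraries is the myoblast-enriched fraction with dox. iMcam and iCdh23 were sequenced at 48 h only. The transgenes were inserted by PiggyBac transposition and stable cells were selected with puromycin. The study describes iMyoD1 as a polyclonal population, and whether iMcam and iCdh23 are polyclonal is not given in the sources used here. The labels call the replicates biological without saying whether each was a separate culture, so p-values measure the spread between these libraries.

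At the junction, the nerve releases agrin, which binds LRP4 on the muscle membrane. LRP4 then activates the kinase MuSK, whose cytoplasmic adaptor is DOK7, and this brings acetylcholine receptors together on the scaffold rapsyn (Rapsn). The receptor is a ring of subunits: embryonic muscle uses alpha, beta, delta and gamma (Chrna1, Chrnb1, Chrnd, Chrng), and epsilon (Chrne) takes the place of gamma in innervated adult muscle. Muscle cells also make agrin, but the spliced form that clusters receptors strongly is a product of the motor neuron. E-boxes, the binding motif of MyoD1 and its relatives, are well known in the promoters of the receptor subunits.

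The genes lie on 5 chromosomes of GRCm38, the assembly that mm10 names. Chrnd (chr1:87190607-87200070) and Chrng (chr1:87204657-87212694) are neighbours on the plus strand. Chrna1 (chr2:73563215-73580338, minus), Rapsn (chr2:91035620-91045729, plus) and Lrp4 (chr2:91457511-91513779, plus) share chromosome 2. Musk (chr4:58285960-58374303, plus) and Agrn (chr4:156165290-156197488, minus) are on chromosome 4, Dok7 (chr5:35056766-35087839, plus) is on chromosome 5, and Chrnb1 (chr11:69784036-69795943, minus) and Chrne (chr11:70614883-70619216, minus) are on chromosome 11. An annotated gene on the opposite strand overlaps Chrne (4930544D05Rik, at most 32 counts in a library) and Rapsn (Gm13778, at most 47 counts). How the counting treated strand is not given in the sources used here, so reads of these pairs are uncertain.

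RefSeq promoter entries were matched for 7 of the 10 genes. Windows of 240 bases, from 250 to 11 bases upstream of the annotated start, were searched on both strands for the E-box CANNTG, for its form CAGCTG, which is the preferred MyoD1 site and is itself an E-box, and for CCGGAA, the core of the N-box known from synaptic muscle genes. The windows of 4 subunits and of Musk are shown because the subunits moved differently with dox, as given further on. E-box and N-box matches are in capitals, and positions count back from the start.

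Chrna1, chr2:73580349-73580588, minus strand: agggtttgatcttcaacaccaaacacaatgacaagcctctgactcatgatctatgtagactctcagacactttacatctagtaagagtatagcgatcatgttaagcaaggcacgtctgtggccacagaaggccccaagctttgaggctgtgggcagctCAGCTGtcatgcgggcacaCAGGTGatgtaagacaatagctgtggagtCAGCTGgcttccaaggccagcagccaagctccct
Chrng, chr1:87205561-87205800, plus strand: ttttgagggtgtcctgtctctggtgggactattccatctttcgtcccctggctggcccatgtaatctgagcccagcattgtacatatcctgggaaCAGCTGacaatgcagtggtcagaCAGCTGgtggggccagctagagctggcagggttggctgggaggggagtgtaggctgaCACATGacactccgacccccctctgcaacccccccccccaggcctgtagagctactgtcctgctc
Chrnb1, chr11:69795948-69796187, minus strand: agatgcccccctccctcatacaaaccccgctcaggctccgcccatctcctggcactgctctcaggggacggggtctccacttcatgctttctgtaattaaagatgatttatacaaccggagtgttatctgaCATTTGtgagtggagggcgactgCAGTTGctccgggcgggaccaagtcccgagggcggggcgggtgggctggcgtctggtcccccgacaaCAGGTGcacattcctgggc
Chrne, chr11:70619205-70619444, minus strand: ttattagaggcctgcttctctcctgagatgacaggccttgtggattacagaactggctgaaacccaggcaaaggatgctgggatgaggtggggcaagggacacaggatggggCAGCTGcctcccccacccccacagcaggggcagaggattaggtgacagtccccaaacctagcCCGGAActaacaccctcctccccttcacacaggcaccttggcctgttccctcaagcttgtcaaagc
Musk, chr4:58285712-58285951, plus strand: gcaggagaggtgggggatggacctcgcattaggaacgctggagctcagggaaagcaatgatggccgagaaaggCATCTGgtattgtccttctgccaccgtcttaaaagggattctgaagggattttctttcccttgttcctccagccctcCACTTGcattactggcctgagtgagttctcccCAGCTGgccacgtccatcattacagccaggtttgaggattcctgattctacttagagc

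Chrna1 and Chrng each held 3 E-boxes, 2 of them CAGCTG (at -92 and -44 in Chrna1, at -155 and -132 in Chrng). Chrnb1 held 3 E-boxes and no CAGCTG. Musk held 3 E-boxes, 1 of them CAGCTG at -68. Chrne held 1 E-box, a CAGCTG at -138, and 1 N-box at -76. Of the 32851 promoter windows of this length in the RefSeq table, 65% held at least 1 E-box, 30.3% held 2 or more, 12.4% held at least 1 CAGCTG, 1.14% held 2 or more, and 11.2% held an N-box. The remaining entries, for Agrn and Dok7, held 0 or 1 E-box each and no CAGCTG. A match describes these letters only, and binding was not measured here.

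Libraries held 15066338 to 50950674 estimated counts (median 22837926). Myod1 did not show the induction in these counts: it stood at 188 ± 9.59 CPM (counts scaled by library size) with dox and 178 ± 5.77 without at 0 h (SD, n = 3), and at 120 h it was lower with dox, 92.0 ± 8.46 against 279.9 ± 42.3. Whether reads of the Halo-MyoD1 transgene were counted under Myod1 was not tested. Mcam was 4.05-fold higher with dox in iMcam, and Cdh23 was 1.25-fold higher in iCdh23 with overlapping libraries and an adjusted p of 0.10. The summed level of 8 myotube markers (Myh3, Myh8, Ttn, Ckm, Acta1, Tnnt3, Actn2 and Mymk) ran from 1.02 CPM in a 0 h library to 20127 CPM in a myotube-enriched one. Neuron, Schwann cell and endothelial or immune markers summed to at most 49.1, 6.59 and 4.41 CPM in any library. The neuronal sum was nearly all Tubb3, with Snap25, Rbfox3, Chat and Slc18a3 at or near 0. The 12 libraries at 0 and 24 h come from 1 deposited table. The labels name 1 batch for the other 35 libraries and none for these. Between 24 and 48 h the time and any difference between these 2 sets of libraries therefore cannot be told apart. Of the 35, the iMyoD1 whole cultures lie in 1 table, and iMcam, iCdh23 and the fractions lie in another. Where these are set beside each other, line or fraction cannot be told apart from table.

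Without dox, 8 of the 9 members tested rose more than 2-fold between 24 and 48 h of differentiation, against 19.3% of all genes in that direction. Chrng, Dok7 and Chrna1 rose the most, and Chrnd and Musk rose more than 10-fold. Agrn rose by less than 2-fold. Over this step the myotube marker sum went from 7.27 ± 0.670 to 11642 ± 666 CPM. The sum of the cycling myoblast markers, listed further on, went from 586 ± 27.2 to 1015 ± 8.17 CPM. The part of either sum in these results was not tested. Throughout, a change is called when the adjusted p of edgeR's quasi-likelihood test is under 0.05 (Benjamini-Hochberg over all genes tested) and the fold is above 2, and "rose" or "fell" is used for any change past that p.

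Chrna1, the subunit that carries the acetylcholine site, read 48.0, 50.9 and 47.8 CPM at 0 h, 25.3, 25.5 and 25.9 at 24 h, 1028, 987 and 949 at 48 h, and 1643, 1644 and 1534 at 120 h in whole cultures without dox. No 2 of these times overlapped, and the level at 24 h was the lowest. It fell by 0.90 ± 0.06 (log2 fold change ± SE) from 0 to 24 h, rose by 5.28 ± 0.07 from 24 to 48 h and rose by 0.72 ± 0.08 from 48 to 120 h (adjusted p 1.1e-08, 1.0e-15 and 6.3e-05).

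Chrng, the embryonic subunit, read 1.49, 1.65 and 1.15 CPM at 0 h, 1.18, 1.99 and 1.87 at 24 h, 520.4, 483 and 468 at 48 h, and 741, 539 and 371 at 120 h. Its 0 and 24 h libraries overlapped, all 48 h libraries lay far above them, and the 120 h libraries spread across the 48 h range. The rise from 24 to 48 h was 289-fold (8.17 ± 0.12, adjusted p 2.4e-15), the steepest of the members tested. From 48 to 120 h the difference was 0.18 ± 0.20 (adjusted p 0.45).

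Chrnd, the delta subunit, was the only member called higher within the first 24 h, where 9.49% of all genes were called higher. It read 1.85, 2.20 and 1.45 CPM at 0 h and 6.09, 8.90 and 6.82 at 24 h, without overlap (2.02 ± 0.20, adjusted p 6.8e-07). It reached 161, 157 and 145 CPM at 48 h and 417, 367 and 317 at 120 h, and both later steps were called (4.40 ± 0.11 and 1.27 ± 0.11).

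Chrnb1, the beta subunit, stood level from 0 to 24 h, at 25.7 ± 3.39 and 24.5 ± 1.61 CPM (-0.03 ± 0.10, adjusted p 0.80). It rose 6.76-fold to 165 ± 3.16 CPM at 48 h and by 0.57 ± 0.07 to 241 ± 8.73 at 120 h. Its rise from 24 to 48 h was 2.76 ± 0.07 on the log2 scale, beside 8.17 for Chrng and 5.28 for Chrna1.

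Chrne, the adult subunit, had 0 to 2 counts in each library at 0 and 24 h and 0 to 7 at 48 h in all 3 lines. At 120 h the whole cultures without dox held 13 to 23 counts, or 0.837, 1.04 and 0.619 CPM, all above the 0.179 to 0.268 CPM of the 48 h libraries. The difference was 1.88 ± 0.44 (adjusted p 0.0042), and it rests on few reads in each library. Together with Chrnd and Musk it made 3 members called higher from 48 to 120 h, against 11.7% of all genes.

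Of the agrin receptor complex, Lrp4, Musk and Dok7 were called lower from 0 to 24 h, against 16.6% of all genes. Over this step the cycling myoblast sum went from 2071 ± 13.7 to 586 ± 27.2 CPM and the myotube marker sum from 1.70 ± 0.598 to 7.27 ± 0.670 CPM. The part of either in these falls was not tested. Lrp4, the agrin receptor, went from 110.3, 108 and 109.8 CPM to 33.9, 31.4 and 29.8 (-1.75 ± 0.06), and was back at 118 ± 3.72 CPM at 48 h and 152 ± 20.4 at 120 h. Musk, the kinase, read 7.23, 6.80 and 6.54 CPM at 0 h, 2.64, 2.41 and 2.87 at 24 h, 44.2, 45.5 and 40.1 at 48 h, and 109.7, 106 and 116 at 120 h. No 2 of the 4 times overlapped for Musk, and it rose at both later steps (4.03 ± 0.10 and 1.37 ± 0.09).

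Dok7, the adaptor of MuSK, read 4.42, 3.55 and 3.59 CPM at 0 h, 0.853, 1.17 and 0.866 at 24 h, 110.4, 104 and 100.3 at 48 h, and 87.6, 65.4 and 44.0 at 120 h. It rose 108-fold from 24 to 48 h and then fell by 0.66 ± 0.20 (adjusted p 0.016). Rapsn, the scaffold, peaked at 48 h as well, with 15.5 ± 0.743 CPM at 24 h, 95.1 ± 4.22 at 48 h and 49.9 ± 20.4 at 120 h, the last with libraries from 29.9 to 70.6 CPM. Its fall from 48 to 120 h was 0.92 ± 0.24 on the log2 scale (adjusted p 0.0084).

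Agrn stayed within a narrow band without dox, from 44.3 ± 2.38 CPM at 24 h to 86.0 ± 3.66 at 48 h. It fell by 0.87 ± 0.06 from 0 to 24 h, rose by 0.96 ± 0.06 from 24 to 48 h, and then fell by 0.37 ± 0.15 with overlapping libraries (adjusted p 0.047).

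**Figure D1:**
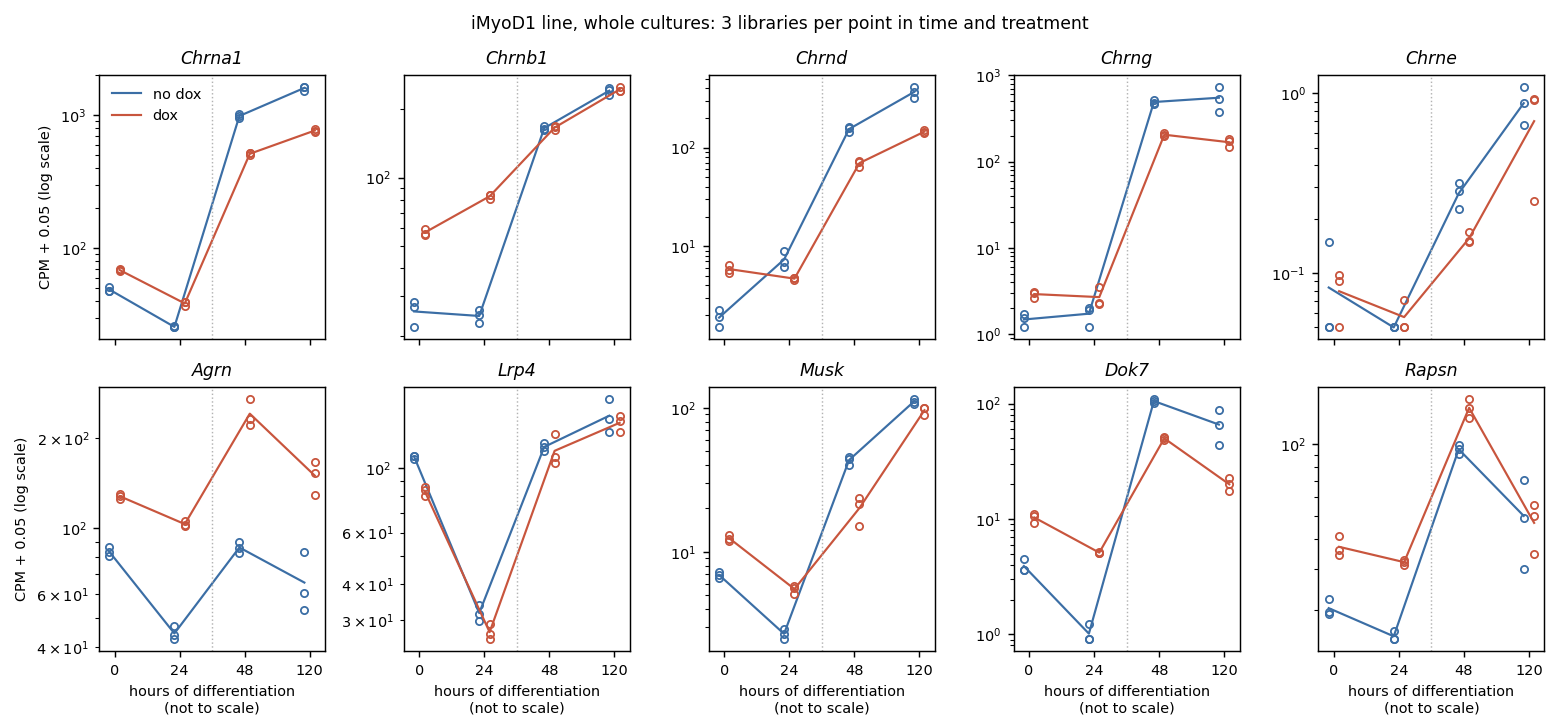
Level of each member in the iMyoD1 whole cultures (y axis, CPM plus 0.05 on a log scale) against hours of differentiation (x axis, not to scale), with circles for libraries, lines through the means, blue without dox and red with dox. The dotted line parts the 2 tables that these cultures come from. The red points lie above the blue ones at 0 h and below them at 48 h for Chrna1, Chrnd, Chrng, Musk and Dok7, while Agrn is higher with dox at all 4 times.

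With dox the sequence of times was alike in direction for most members, and 8 of 9 were again called higher from 24 to 48 h (17.0% of all genes). The exception was Chrnb1, which rose by 0.98 ± 0.06 from an already raised level. Lrp4, Musk and Dok7 were again the 3 members called lower from 0 to 24 h (11.6% of all genes), and Chrnd, which had risen without dox, fell by 0.32 ± 0.13 (adjusted p 0.049). From 48 to 120 h with dox, Musk (2.25 ± 0.14) and Chrnd (1.07 ± 0.09) were called higher, against 15.1% of all genes, and Rapsn (-1.60 ± 0.15) and Dok7 (-1.32 ± 0.11) lower, against 21.3%.

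The makeup of the receptor transcripts shifted over this course. As a share of the counts of the 5 subunits, each divided by transcript length, Chrnb1 was 49.4% ± 3.6 at 0 h without dox and 13.9% ± 0.18 at 48 h (SD, n = 3). Chrng went from 2.28% ± 0.45 to 35.6% ± 0.41 between the same times. Chrna1 was 44.1% ± 2.8 at 0 h and 39.4% ± 0.46 at 48 h. At 24 h without dox Chrnb1 was at 56.5% ± 2.7, Chrna1 at 26.4% ± 1.7, Chrnd at 13.4% ± 3.3 and Chrng at 3.76% ± 1.1. A lower share does not mean less RNA, since Chrnb1 stood at 25.7 CPM at 0 h and 165 CPM at 48 h. These are shares of RNA and do not give the subunits of assembled receptors.

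With dox the beta share was higher and the gamma share lower in every matched group of whole cultures from 48 h on. Chrnb1 made 25.9% ± 0.028 of the subunit transcripts at 48 h with dox in iMyoD1 and 27.5% ± 0.73 at 120 h, beside 13.7% ± 1.2 at 120 h without. The widest differences were in the other lines: 59.0% ± 8.0 with dox and 16.2% ± 2.0 without in iCdh23, and 37.1% ± 3.8 and 18.2% ± 1.5 in iMcam. Chrne made at most 0.851% of the subunit transcripts, the mean of the myotube-enriched fraction with dox, where its SD was 0.96.

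The switch from gamma to epsilon, which marks maturation of the junction in animals, can be read as the log2 ratio of Chrng to Chrne, with 0.5 counts added and both divided by length. Without dox it was 10.06 ± 0.70 at 48 h and 8.84 ± 0.34 at 120 h, so Chrng exceeded Chrne by far at both times. The difference between the times was -1.23, and the 2-sided exact permutation test gave p = 0.10, the smallest that 3 libraries against 3 allow. With dox it was 9.36 ± 0.55 and 7.94 ± 1.23, and the exact permutation p was 0.30.

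**Figure D2:**
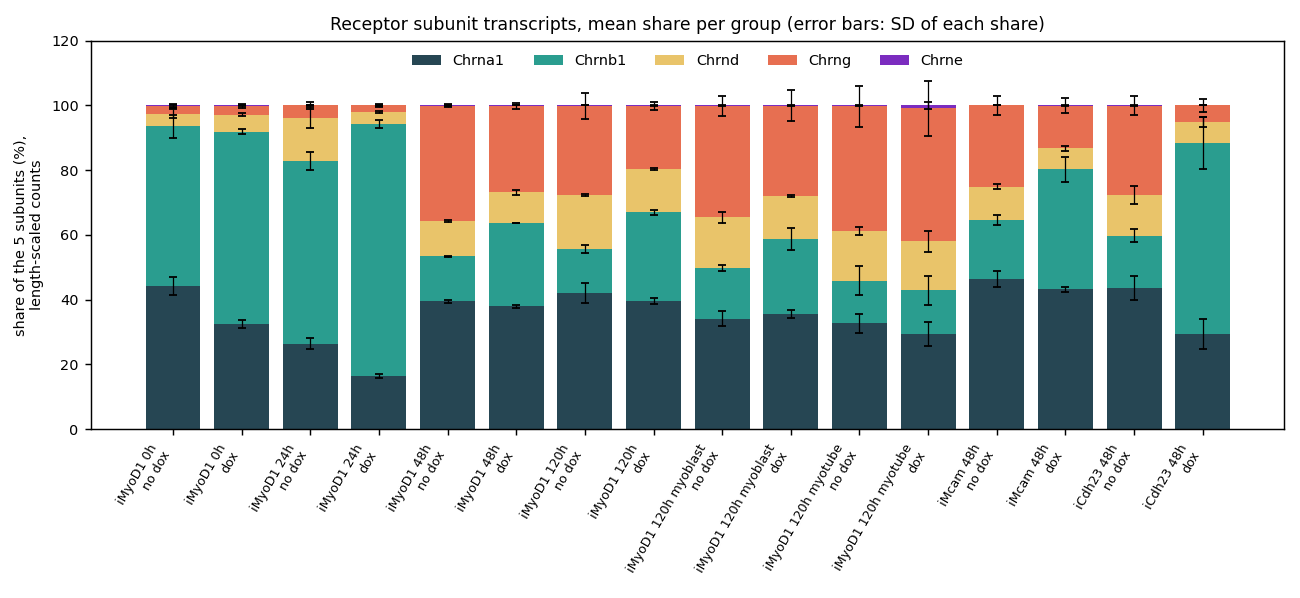
Mean share of each subunit in the length-scaled counts of the 5 subunits (y axis, percent) in the 16 groups (x axis), with error bars for the SD of each share. Chrnb1 holds 49.4% to 78.0% at 0 and 24 h and 13.2% to 27.5% in the later iMyoD1 groups, and it is at 59.0% in iCdh23 with dox.

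In growth medium, before differentiation, 24 h of dox in iMyoD1 raised 8 of the 9 members tested and lowered Lrp4, where 19.1% of all genes were higher and 18.7% lower past the p alone. Of these, Chrnb1, Chrnd, Chrng and Dok7 passed 2-fold, 4 of 9 where 2.91% of all genes were called higher. With dox at 0 h, Chrna1, Chrnd, Chrng and Dok7 were far under their levels at 48 h, while Musk, at 12.3 ± 0.714 CPM, was closer to the 20.1 ± 4.53 CPM of the 48 h libraries with dox. The sum of the myotube markers was 4.41 ± 0.287 CPM with dox and 1.70 ± 0.598 without, and its part in these results was not tested.

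Chrnb1 read 56.3, 55.5 and 59.5 CPM with dox and 28.2, 26.9 and 21.8 without at 0 h, with no overlap (2.25-fold, 1.17 ± 0.09, adjusted p 2.5e-07). Dok7 read 9.13, 10.5 and 11.1 CPM with dox against 4.42, 3.55 and 3.59 (2.68-fold, adjusted p 6.0e-06). Chrnd read 5.73, 5.33 and 6.34 CPM with dox against 1.85, 2.20 and 1.45 (1.67 ± 0.21, adjusted p 3.1e-05). All dox libraries were above all others for these 3 genes. Chrng was low in both, 2.87 ± 0.234 and 1.43 ± 0.257 CPM (1.01 ± 0.25, adjusted p 0.0061), close to the 2-fold limit. Rapsn and Musk rose by 0.86 each, Agrn by 0.63 and Chrna1 by 0.50, while Lrp4 fell by 0.38 ± 0.05, from 109 ± 1.29 to 83.5 ± 3.15 CPM.

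After 24 h of differentiation the effects on Dok7, Agrn and Chrnb1 were larger than at 0 h, and that on Chrnd had turned. Dok7, Chrnb1, Agrn, Musk and Rapsn were called higher, 5 of 9 beside 8.02% of all genes. When all groups were fitted together, 3 members were called higher. Dok7 read 5.12, 5.03 and 5.00 CPM with dox against 0.853, 1.17 and 0.866 without (5.12-fold, 2.36 ± 0.17, adjusted p 2.3e-07). Chrnb1 read 83.9, 80.5 and 83.4 CPM against 24.7, 26.0 and 22.8 (3.31-fold, adjusted p 6.8e-10), and Agrn 105, 102 and 102 CPM against 46.9, 42.3 and 43.7 (2.28-fold, adjusted p 5.0e-09). The dox libraries were the higher in all 3 genes without overlap. Musk and Rapsn lay at the limit, at 2.02-fold each.

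Chrnd read 4.53, 4.66 and 4.71 CPM with dox at 24 h, all under the 6.09, 8.90 and 6.82 CPM without it (-0.68 ± 0.14, adjusted p 0.0012). The difference between its dox effects at 24 and 0 h was -2.39 ± 0.24 (adjusted p 1.2e-06), the only such difference called among the 9 members, with 2.64% of all genes called in that direction. The dox effects on Dok7 (0.89 ± 0.23), Agrn (0.52 ± 0.07) and Chrnb1 (0.51 ± 0.11) were larger at 24 h than at 0 h, under the 2-fold limit, and the differences for Musk, Rapsn, Lrp4, Chrna1 and Chrng did not pass the test.

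At 48 h in iMyoD1 the picture was split. Chrng, Chrnd, Musk and Dok7 were called lower with dox, 4 of 9 beside 8.46% of all genes, and Chrna1 fell just under 2-fold. Agrn was called higher, beside 5.93% of all genes, and Rapsn rose by less than 2-fold. Chrnb1 and Lrp4 did not pass the test. The myotube marker sum was lower with dox too, 4594 ± 174 against 11642 ± 666 CPM, as was that of 6 markers of cycling myoblasts (Mki67, Top2a, Ccnb1, Cdk1, Pax7 and Myf5), 421 ± 24.1 against 1015 ± 8.17 CPM. In bulk cultures, fewer myotubes and less RNA of a gene in each myotube cannot be told apart.

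Chrna1 read 501, 518 and 521 CPM with dox and 1028, 987 and 949 without (-0.96 ± 0.07, adjusted p 6.7e-07). Chrng read 197, 215 and 203 CPM against 520.4, 483 and 468 (-1.27 ± 0.07, adjusted p 1.0e-07), and Chrnd 73.9, 63.2 and 71.9 CPM against 161, 157 and 145 (-1.16 ± 0.08). Every dox library of these 3 subunits lay under every library without dox. Chrnb1 was at 162, 167 and 169 CPM with dox and 169, 164 and 162 without, overlapping throughout (-0.01 ± 0.06, adjusted p 0.92). The SE was between 0.06 and 0.08 for each of the 4 subunits.

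In the complex, Dok7 read 51.2, 48.6 and 49.8 CPM with dox and 110.4, 104 and 100.3 without (-1.09 ± 0.07), and Musk 20.1 ± 4.53 CPM against 43.3 ± 2.83 (-1.11 ± 0.14). Agrn went the other way, with 271, 231 and 222 CPM against 82.4, 89.7 and 86.0 (2.78-fold, 1.47 ± 0.08, adjusted p 2.1e-07). Rapsn read 129, 155 and 142 CPM against 99.4, 90.9 and 94.9 (1.48-fold, adjusted p 8.5e-05). The groups did not overlap in any of the 4, while Lrp4 overlapped at 115 ± 14.7 and 118 ± 3.72 CPM (-0.06 ± 0.09).

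At 120 h in whole cultures 4 of 10 members were called lower with dox, beside 8.8% of all genes, and Agrn was called higher, beside 7.32%. Chrna1 read 755, 763 and 786 CPM with dox against 1643, 1644 and 1534 (-1.08 ± 0.08), Chrnd 142, 144 and 150.0 CPM against 417, 367 and 317 (-1.35 ± 0.11), and Chrng 146, 175 and 182 CPM against 741, 539 and 371 (-1.73 ± 0.22). Dok7 read 17.3, 22.4 and 20.0 CPM against 87.6, 65.4 and 44.0 (-1.74 ± 0.23, adjusted p 0.00029). These 4 stood apart without overlap.

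Musk, lower with dox at 48 h, was at 99.9, 88.9 and 99.6 CPM with dox and 109.7, 106 and 116 without at 120 h, a difference of -0.22 ± 0.09 (adjusted p 0.070). Chrnb1 was level again, at 244 ± 6.33 and 241 ± 8.73 CPM. Agrn read 129, 167 and 153 CPM with dox against 83.1, 60.8 and 53.0 (2.26-fold, adjusted p 0.00045). The myotube marker sum at 120 h was 11051 ± 888 CPM with dox and 13976 ± 1409 without, a closer pair than at 48 h. The cycling myoblast sum was higher with dox at 120 h, 509 ± 38.6 against 273 ± 17.7 CPM without overlap, where at 48 h it was lower. The part of either sum in these results was not tested.

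**Figure D3:**
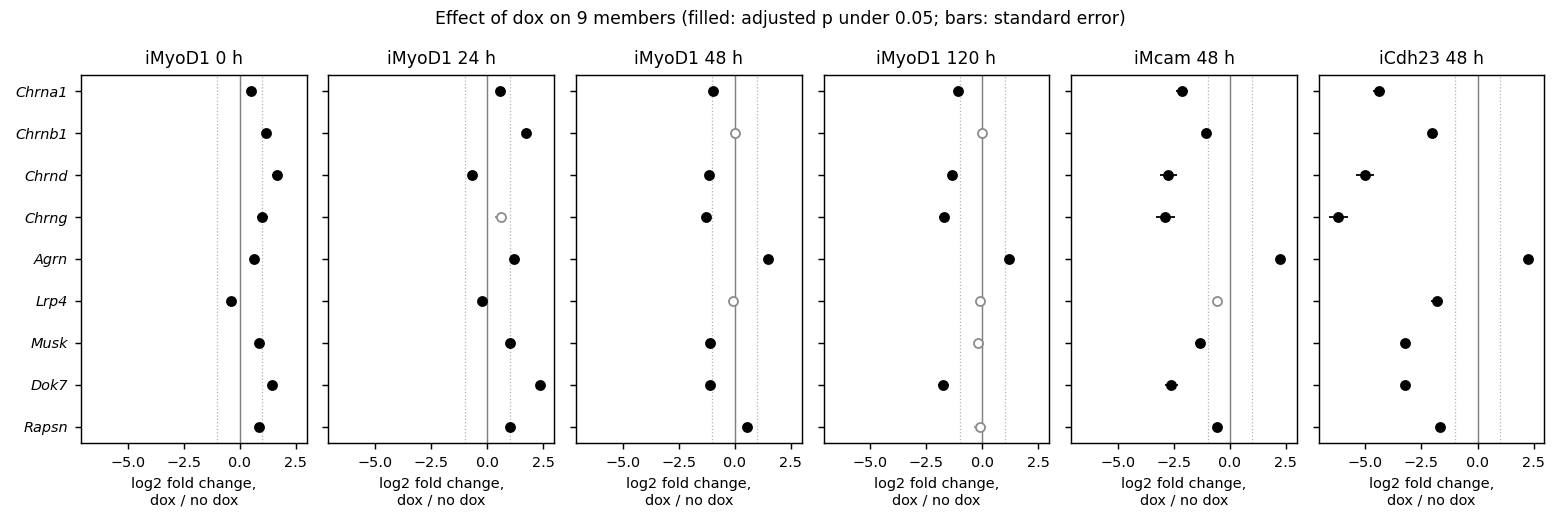
Log2 fold change of 9 members with dox against without (x axis) in 6 comparisons of whole cultures, with bars for the SE, filled points for an adjusted p under 0.05 and dotted lines at 2-fold. Agrn (0.63 to 2.25) lies to the right of 0 in all 6 panels, and Chrna1, Chrnd, Chrng and Dok7 lie to the left in all 4 panels from 48 h on.

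Dox in the lines made to express Mcam or Cdh23 lowered Chrna1, Chrnb1, Chrnd and Chrng and raised Agrn. The differences from iMyoD1 were called for these 4 subunits in both lines, but in iMcam those calls were lost when all 16 groups shared 1 estimate of spread and without iMcam replicate 2 with dox. In iCdh23, 8 of 9 members were called lower with dox, beside 17.0% of all genes, and Agrn was called higher, beside 13.0%. In iMcam, 6 of 9 were called lower, beside 9.85%, and Agrn again higher, beside 6.99%. The myotube marker sums moved with this: 61.7 CPM with dox (34.2 to 112) against 6126 CPM without in iCdh23, and 811 CPM (448 to 1482) against 5606 CPM in iMcam. The sum of the cycling myoblast markers fell alongside, 118 ± 17.8 against 825 ± 150.0 CPM in iCdh23 and 162 ± 27.0 against 659 ± 66.4 CPM in iMcam. The part of either in the receptor results was not tested.

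In iCdh23, Chrng read 2.50, 2.08 and 5.24 CPM with dox against 179, 229 and 323 without, a 74.1-fold difference (-6.21 ± 0.42, adjusted p 1.8e-05). Chrna1 read 33.0, 23.4 and 45.7 CPM against 633, 747 and 781 (-4.40 ± 0.27), and Chrnd 3.25, 2.78 and 5.67 CPM against 85.7, 112 and 186 (-5.03 ± 0.40). For comparison, iMyoD1 cells at 0 h without dox had 1.43 ± 0.257 CPM of Chrng and 48.9 ± 1.73 CPM of Chrna1, a difference that was not tested. Chrnb1 changed less, from 125 ± 9.29 to 31.0 ± 8.17 CPM (-2.01 ± 0.19). Musk (-3.22), Dok7 (-3.24), Lrp4 (-1.80) and Rapsn (-1.68) were lower as well, each without overlap. Agrn read 616, 462 and 531 CPM against 113, 109 and 117 (4.74-fold, 2.25 ± 0.13, adjusted p 1.2e-05), its highest level among the 16 groups.

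In iMcam, Chrng read 15.3, 17.9 and 40.3 CPM with dox against 124, 168 and 262 without (-2.88 ± 0.42, adjusted p 0.0015). Chrna1 read 113, 107 and 202 CPM against 515, 631 and 754 (-2.13 ± 0.26), and Chrnd 9.84, 8.61 and 20.4 CPM against 64.1, 84.5 and 119 (-2.74 ± 0.36). Replicate 3 with dox was the highest of its group for all 3 subunits, and it also had the highest myotube marker sum. Dok7 was at 9.64 ± 3.55 against 60.5 ± 18.2 CPM (-2.61 ± 0.30), Musk at 16.6 ± 4.37 against 43.3 ± 9.07 (-1.35 ± 0.21), and Chrnb1 at 53.4 ± 12.3 against 115 ± 19.6 (-1.07 ± 0.18). Rapsn fell by 0.57 ± 0.10. Lrp4 overlapped, at 155, 189 and 173 CPM with dox and 274, 326 and 181 without (-0.56 ± 0.21, adjusted p 0.055), and in the fit with the replicate number as a block, which the data supported for this comparison, it was -0.52 with an adjusted p of 0.030. Agrn read 434, 513 and 428 CPM against 96.7, 113 and 87.6 (4.74-fold, 2.24 ± 0.13, adjusted p 0.00012).

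The differences between lines were tested directly. Against iMyoD1 at 48 h, the dox effect in iCdh23 was lower for 8 of 9 members, beside 12.1% of all genes, by 1.72 (Lrp4) to 4.92 (Chrng) on the log2 scale. In iMcam it was lower for 6 of 9, beside 1.57% of all genes, by 1.07 (Chrnb1) to 1.60 (Chrng). That count went down to 1, Dok7, when all 16 groups shared 1 estimate of spread, and it lay between 2 (Rapsn and Dok7, without iMcam replicate 2 with dox) and 6 when single libraries were left out. It was 3 without iMcam replicate 1 with dox, without iMyoD1 replicate 2 or 3 with dox, and without any 1 of the 3 iMyoD1 libraries that had no dox. Between iMcam and iCdh23 the dox effect was higher in iMcam for Chrng (3.31), Chrnd (2.27), Chrna1 (2.25), Musk (1.85) and Rapsn (1.09), 5 of 9 beside 5.47% of all genes. That count lay between 3 (without iCdh23 replicate 2 with dox, where Chrnd and Rapsn lost their calls) and 6 when single libraries were left out. The effect on Agrn did not differ detectably between those 2 lines (-0.02 ± 0.19), and it was larger in both than in iMyoD1, by 0.79 ± 0.15 in iCdh23 and 0.77 ± 0.16 in iMcam (adjusted p 0.0017 and 0.015). iMyoD1 and the other lines share no libraries in these tests, but each line enters 2 of the 3.

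Chrna1, Chrnb1 and Agrn are set beside the myotube marker sum across the 18 libraries at 48 h, as a description. Libraries with little myotube marker RNA had little Chrna1 RNA, from 23.4 CPM in an iCdh23 library with dox to 1028 CPM in iMyoD1 without. Chrnb1 was at 162 to 169 CPM in iMyoD1 both with and without dox, although the marker sum differed there, and in the other lines it was lower in the dox libraries, 23.0 to 39.3 against 116 to 135 CPM in iCdh23 and 44.4 to 67.5 against 98.7 to 137 CPM in iMcam. Agrn was lowest, at 82.4 to 117 CPM, in the 9 libraries without dox and between 222 and 616 CPM in the 9 with it.

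**Figure D4:**
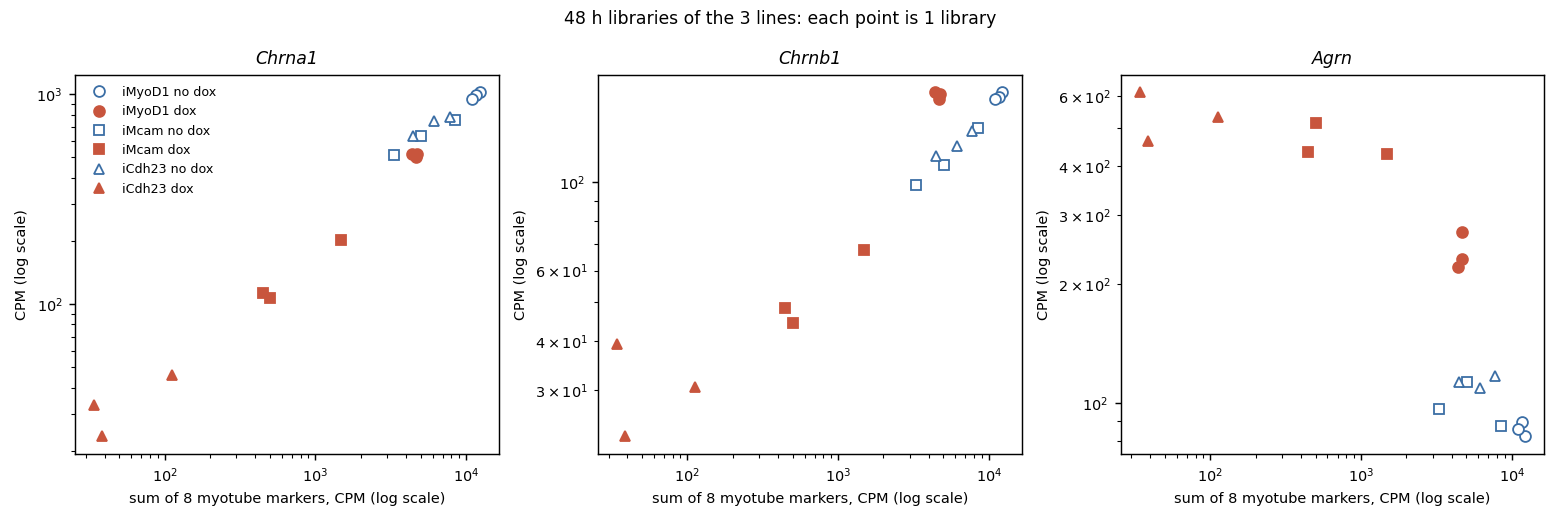
Level of Chrna1, Chrnb1 and Agrn (y axes, CPM, log scale) against the summed level of 8 myotube markers (x axes, CPM, log scale) in the 18 libraries at 48 h, filled red with dox and open blue without, with a shape for each line. Chrna1 climbs with the marker sum, Chrnb1 stands at 162 to 169 CPM in both iMyoD1 groups, and Agrn is above 200 CPM only in dox libraries.

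The fractions compare myotube-enriched with myoblast-enriched libraries of a differentiated culture. Their levels are not directly comparable with those of whole cultures, as given further on. At 120 h without dox, edgeR called Musk and no other member between fractions, at 60.1, 59.9 and 51.7 CPM in the myotube-enriched libraries and 27.6, 23.3 and 32.0 in the myoblast-enriched ones (2.11-fold, 1.07 ± 0.16, adjusted p 0.040), beside 0.57% of all genes. That call was lost in 5 of the 6 fits that left out 1 library. DESeq2 called 3 members (Musk, Chrng and Chrne), and edgeR called 2 (Musk and Chrng) with all groups in 1 fit and with no low-count filter. Chrna1 read 878, 869 and 1245 CPM against 494, 561 and 540.4, without overlap (0.93 ± 0.20, adjusted p 0.089), and in the fit with the replicate number as a block, supported here by the data, it was 0.91 with an adjusted p of 0.039. All 3 myotube-enriched libraries were also higher for Chrnb1, Chrnd, Chrng and Chrne, with differences of 0.68 to 2.05 that did not pass the test without that block. Dok7 (-0.04 ± 0.23) and Agrn (0.20 ± 0.29) overlapped. The fractions were only enriched: the myotube marker sum was 5015 to 7343 CPM in the myoblast-enriched libraries without dox, and 12936 to 20127 in the myotube-enriched ones.

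Chrne reached its highest levels in the myotube-enriched fraction, with 3.05, 2.07 and 2.71 CPM without dox (52 to 59 counts). With dox the 3 libraries read 1.86, 27.2 and 0.513 CPM, so 1 library set the mean. Chrng in the same libraries read 622, 417 and 1010 CPM without dox and 731, 928 and 215 with it. The log2 ratio of Chrng to Chrne was 7.13 ± 0.73 in the myotube-enriched and 8.86 ± 1.57 in the myoblast-enriched fraction without dox, with an exact permutation p of 0.20 when the replicate numbers were not used. It was lower in the myotube-enriched library of each of the 3 pairs, at 6.45, 7.05 and 7.90 against 10.2, 7.16 and 9.17.

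Dox had few detectable effects within the fractions, where replicates spread widely. In the myoblast-enriched fraction Rapsn rose, with 128 and 98.0 CPM against 57.6, 68.5 and 63.2 (1.80-fold, 0.85 ± 0.16, adjusted p 0.036). Agrn read 192 and 238 CPM against 114, 68.2 and 122 (2.14-fold, adjusted p 0.053). The myotube marker sum of this fraction was 4348 and 4590 CPM with dox against 5015 to 7343 CPM without. Its cycling myoblast sum overlapped, at 335 and 657 CPM against 420 to 1045 CPM. The part of either sum in these results was not tested. By edgeR 0 of 9 members were called there, beside 1.21% of all genes higher and 1.82% lower, with 4 members (Rapsn, Agrn, Dok7 and Chrnd) at an unadjusted p under 0.05 and 1, Agrn, called by DESeq2. Agrn was also called by edgeR with all groups in 1 fit, with no low-count filter and with the replicate number as a block, where the 2 pairs that exist had correlations of 0.378 and 0.538. In the myotube-enriched fraction 0 of 10 were called by edgeR, beside 0.0% of all genes, with 0 at an unadjusted p under 0.05 and 0 by DESeq2. Its dox libraries ran from 380.1 to 1233 CPM for Chrna1 and from 13.9 to 62.3 CPM for Musk, which for Musk spans the libraries without dox. The 13.9 CPM is from replicate 1. There 859 of 971 Dok7 counts were given to the transcript Dok7-202, against at most 74.9 counts in any other library. What set that library apart was not tested. Between the fractions with dox, edgeR called 0 of 10, beside 0.0% of all genes, with 2 members (Chrne and Chrng) at an unadjusted p under 0.05 and 1, Chrne, by DESeq2. The dox effect itself was called different between fractions for 0 of 10, beside 0.0% of all genes, with 0 at an unadjusted p under 0.05 and 0 by DESeq2.

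**Figure D5:**
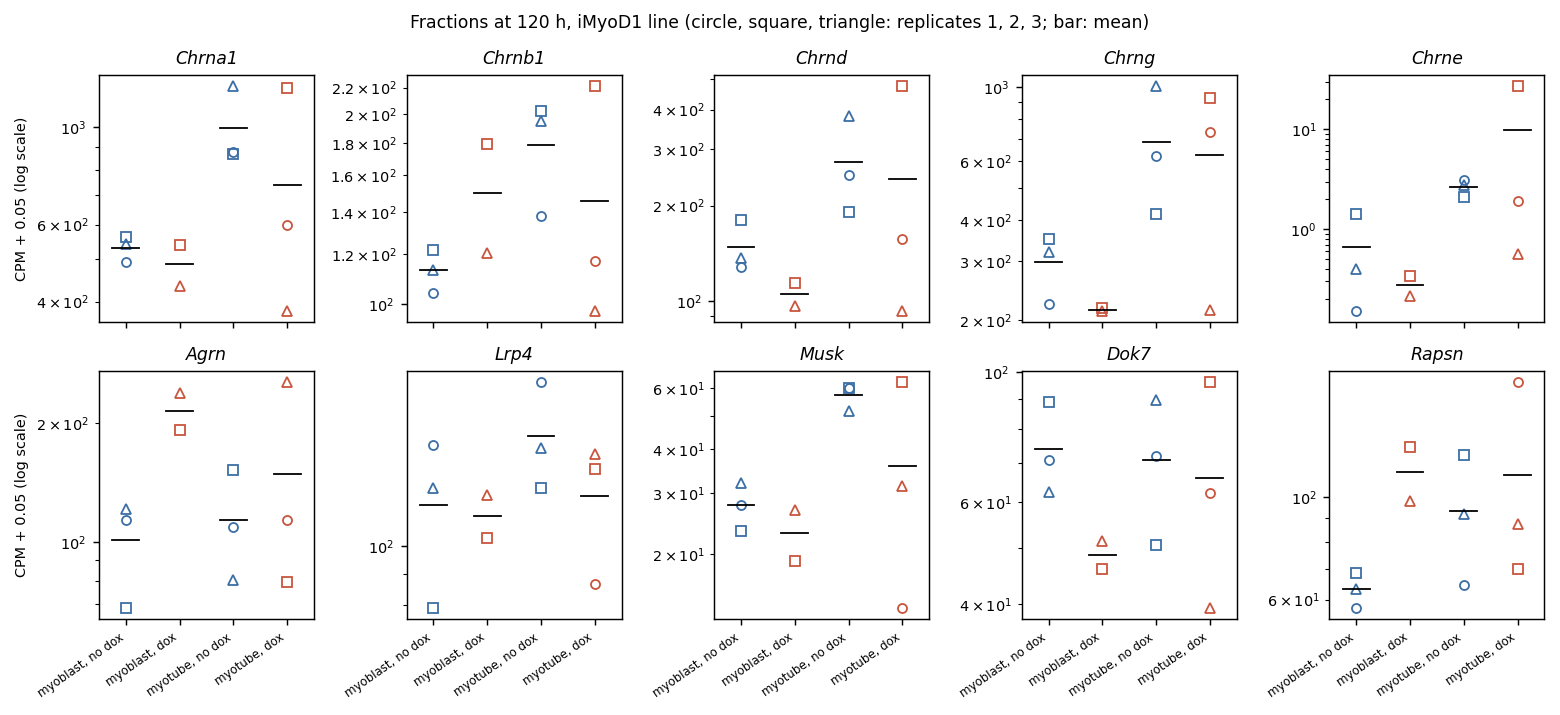
Level of each member in the myoblast- and myotube-enriched fractions at 120 h (y axes, CPM plus 0.05, log scale), with circle, square and triangle for replicates 1, 2 and 3, blue without dox, red with dox and bars for means. The 3 myotube-enriched libraries without dox are above the myoblast-enriched ones for Musk (51.7 to 60.1 against 23.3 to 32.0 CPM) and for all 5 subunits, and the libraries of the myotube-enriched fraction with dox lie far apart for Chrne (0.513 to 27.2 CPM) and Musk (13.9 to 62.3 CPM).

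Agrin transcripts differ in small exons that in part decide how strongly the protein clusters receptors, so the transcripts behind the dox response were looked at. Only Agrn-203 among the annotated protein-coding transcripts carries all 3 of the exons shown, exons 30, 34 and 35 of its 38, and exon 34 directly precedes exon 35. They are printed in the sense of the gene, which lies on the minus strand of chr4 in GRCm38, with exon bases in capitals and 14 bases of the neighbouring exons on either side.

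Exon 30, 12 bases, chr4:156169546-156169557: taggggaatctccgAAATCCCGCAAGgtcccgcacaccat
Exon 34, 24 bases, chr4:156168546-156168569: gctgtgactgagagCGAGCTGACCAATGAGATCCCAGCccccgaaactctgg
Exon 35, 33 bases, chr4:156167777-156167809: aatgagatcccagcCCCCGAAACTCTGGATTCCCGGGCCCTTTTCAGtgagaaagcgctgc

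Salmon assigned Agrn-203 a share of 0% of the Agrn counts in 11 of the 12 libraries at 0 and 24 h. At 48 h in iMyoD1 it was 6.81%, 4.26% and 8.12% without dox and 3.96%, 3.87% and 2.12% with it, with no overlap. In counts it was 94.4, 71.3 and 156 without dox and 447, 444 and 95.5 with it, in libraries of unlike depth. Total Agrn was higher with dox there, so the lower share does not show less of this transcript. In iCdh23 it was 4.04%, 5.40% and 9.02% without dox and 0% in all 3 libraries with dox, where total Agrn was highest. In iMcam it was 0%, 5.66% and 9.04% without dox and 0%, 0.57% and 0% with it. At 120 h without dox it was 13.0%, 11.1% and 16.5% in the myotube-enriched fraction and 15.6%, 18.9% and 0% in whole cultures, so these groups overlapped. The myoblast-enriched libraries without dox, at 7.01%, 5.62% and 9.72%, lay under all 3 myotube-enriched ones. With dox it was 0.69%, 18.6% and 8.17% in the myotube-enriched fraction, where libraries spread widely, 5.88% and 4.86% in the myoblast-enriched fraction, and 0%, 0% and 2.24% in whole cultures. Agrn-205, a retained-intron transcript that also carries exon 34, held 18.4% to 37.7% of the Agrn counts at 48 h with dox in iMyoD1 and up to 88.3%, in the library at 0.69%, in the myotube-enriched fraction with dox, so the share of Agrn-203 does not measure exon 34. Most Agrn counts at 48 h with dox were given to Agrn-202 and Agrn-206, which lack these exons. Agrn-206 held 60.3% to 67.3% in iCdh23 and 59.6% to 68.9% in iMcam with dox, while in iMyoD1 with dox Agrn-202 held 42.7%, 42.1% and 45.9% and Agrn-206 held 32.8%, 25.6% and 12.8%. These shares are estimates from short reads, and combinations of the exons that are not annotated were not measured.

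The levels were ordered over the 16 groups, and the groups next to each other in that order often overlapped. Of 15 neighbouring pairs, 8 overlapped for Dok7, 9 for Chrna1 and Musk, 11 for Chrnb1, Chrng and Agrn, 12 for Chrnd, Lrp4 and Rapsn, and 14 for Chrne. Chrna1, Chrnd and Musk were highest at 120 h in whole cultures without dox. Their means there were above those of both fractions without dox (1607 against 997 and 532 CPM for Chrna1), as was that of Chrnb1. The means of Dok7, Rapsn and Agrn lay under both. A mix of both fractions alone would lie between them, so levels of whole cultures and fractions are not directly comparable. The reason was not tested. Chrng and Chrne were highest in the myotube-enriched fraction, without and with dox respectively, Dok7 at 48 h without dox and Rapsn at 48 h with dox. Lrp4 was highest in iMcam without dox (261 ± 73.3 CPM).

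Over the same 16 group means, the genes most like each member among 12085 genes were named by Pearson correlation of the log2 of CPM plus 1, as a description, since all share libraries. Chrna1 was most like Trim55 (r = 0.993), and Chrng most like Klhl40 (0.997), Ppfia4 (0.997) and Trim72 (0.994). Musk was most like Synpo2 (0.972) and Akap6 (0.970), and Chrnb1 most like Stac3 (0.970). Agrn was most like Nlgn2 (0.972), and its own correlation with the other members lay between -0.20 and 0.18. Among the members, Chrna1, Chrnd and Chrng were at 0.967 to 0.980 with each other.

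Of 61 other genes of the junction in 6 lists (partners of MuSK and rapsyn, basal lamina, postsynaptic cytoskeleton, neuregulin receptors and transcription regulators, glycosylation, and neuronal receptor subunits), 48 were tested from 24 to 48 h without dox, where 17 were called higher, beside 19.3% of all genes, and 3 lower, beside 11.1%. The median log2 change of these genes was 0.49, against -0.02 over all genes tested. Scn4a, the sodium channel of muscle, rose from 0.0352 ± 0.0355 to 12.3 ± 2.27 CPM, and Sntb1, a syntrophin of the postsynaptic cytoskeleton, from 0.208 ± 0.00487 to 38.3 ± 3.28 CPM. Myog, a transcription factor that drives late myogenic genes including receptor subunits, rose from 4.89 ± 0.187 to 1679 ± 14.1 CPM.

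With dox at 48 h in iMyoD1, 2 of 47 such genes were called higher and 9 lower, beside 5.93% and 8.46% of all genes. In iCdh23 it was 2 and 14 of 48, beside 13.0% and 17.0%, and in iMcam 1 and 10 of 48, beside 6.99% and 9.85%. Lamb2, the laminin chain of the synaptic basal lamina, was higher in all 3 lines, by 1.07 ± 0.07 in iMyoD1, 1.89 ± 0.17 in iCdh23 and 1.41 ± 0.16 in iMcam. Lama4, another laminin chain, was lower in all 3, by -1.03, -3.97 and -1.37. Myog was at 601 ± 68.9 against 1679 ± 14.1 CPM in iMyoD1, 7.35 ± 6.71 against 1135 ± 337 in iCdh23, and lower by 3.06 ± 0.40 on the log2 scale from 854 ± 304 in iMcam. Colq, which anchors acetylcholinesterase in the cleft, was higher with dox in iMyoD1 at 48 h (3.37 ± 0.497 against 1.12 ± 0.344 CPM) and at 120 h (8.80 ± 0.856 against 1.81 ± 0.696 CPM). In growth medium 1 of 42 was called higher, beside 2.91% of all genes, and 1 lower, beside 1.36%. They were Erbb3, a neuregulin receptor, higher (16.8 ± 2.99 against 4.49 ± 1.35 CPM), and Nrg1, its ligand, lower (4.45 ± 0.642 against 12.1 ± 1.17 CPM).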

How the data were processed

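Poly(A) RNA libraries were quantified by the authors with Salmon in the nf-core/rnaseq pipeline against mm10, and the deposited values are estimated counts per transcript in 3 tables for 47 libraries; the annotation release is not given in the sources used here. Of 109617 transcripts, 98.72% were matched by identifier to the GRCm38 annotation for gene symbols. Counts were summed per gene and rounded. Each comparison was fitted on its own groups with edgeR 4.0.16 (filterByExpr, TMM, quasi-likelihood test, Benjamini-Hochberg over all genes tested) and no replicate block. Levels are CPM with TMM scaling over the 47 libraries. Differences of dox effects were interaction terms. The script for these fits was tested on simulated counts. Alternatives were DESeq2 1.42.0, RLE scaling, no low-count filter, no fold threshold, 1 fit over all groups, a replicate block and each library left out.

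The members and lists were chosen with earlier results of these data known. All 10 members were described, other list genes were named when called (at most 2 per direction, list and comparison, chosen by size of change), and 3 similar genes per member were computed. The replicate numbers paired the libraries, with all 3 correlations of their deviations above 0.1, for dox in iMcam and for the fractions without dox. They did so in no other comparison with 3 pairs, and comparisons with 2 pairs were not judged. No replicate pair agreed within sampling noise (chi-square per gene 3.04 to 411). Intervals of single counts were not used.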

Additional observations from a re-analysis of the deposited data

Results flagged for a closer look

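The effect of dox on 20 occasions differed between 2 settings of the same contrast by an interaction test, past an adjusted p of 0.05 and 2-fold (edgeR, differences on the log2 scale). Between 24 and 0 h in iMyoD1, this held for Chrnd (-2.39), which dox raised at 0 h and lowered at 24 h.

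Between iCdh23 and iMyoD1 at 48 h it held for Chrna1 (-3.43), Chrnb1 (-1.99), Chrnd (-3.85), Chrng (-4.92), Lrp4 (-1.72), Musk (-2.09), Dok7 (-2.14) and Rapsn (-2.23). Rapsn was higher with dox in iMyoD1 and lower in iCdh23, while Chrnb1 and Lrp4 did not pass the test in iMyoD1. Between iMcam and iMyoD1 it held for Chrna1 (-1.18), Chrnb1 (-1.07), Chrnd (-1.58), Chrng (-1.60), Dok7 (-1.52) and Rapsn (-1.14). Of these 6, Dok7 alone was called with all groups in 1 fit, and 2 to 6 were called when single libraries were left out.

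Between iMcam and iCdh23 the differences were positive, the dox effect being less negative in iMcam, for Chrna1 (2.25), Chrnd (2.27), Chrng (3.31), Musk (1.85) and Rapsn (1.09), with 3 to 6 members called when single libraries were left out. The lines also differ in their myotube marker sums and in their levels without dox, and the part of these in the differences was not tested.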

How the results depend on the processing

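Counts of members called moved most without the fold threshold, which gave 8 higher and 1 lower with dox at 0 h, 2 lower at 24 h, 2 higher at 48 h and 1 higher in the myoblast-enriched fraction, 6 lower from 0 to 24 h, 6 higher and 3 lower from 48 to 120 h without dox, 1 higher and 7 lower, then 5 higher and 4 lower, at these steps with dox, and, for differences of dox effects, 3 higher (24 h against 0 h), 1 higher (iCdh23 against iMyoD1) and 1 higher (iMcam against iMyoD1). With all groups in one fit there were 3 higher with dox at 24 h, 1 in the myoblast-enriched fraction, 2 between fractions without dox and 1 with dox, and 1 lower between iMcam and iMyoD1. DESeq2 gave 1, 3 and 1 for those fraction comparisons, and no low-count filter gave 1 and 2 for the first 2. The Chrng to Chrne change from 48 to 120 h with dox was -2.51 when counts were not divided by length. RLE scaling moved no count, and 194 of 195 single results kept direction and side of the threshold; DESeq2 kept 182, no filter 184, the replicate block 182, 1 fit 155, and single libraries left out 1299 of 1417.

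Leaving out single libraries gave 0 to 1 member lower from 48 to 120 h without dox (1 without the 120 h replicate 1), 0 to 1 higher between fractions without dox, 0 to 1 higher for the 24 h against 0 h difference (1 without the 24 h replicate 2 without dox), 2 to 6 lower between iMcam and iMyoD1, and 3 to 6 higher between iMcam and iCdh23 (3 without iCdh23 replicate 2 with dox).

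The replicate number as a block gave 1 member (Agrn) higher with dox in the myoblast-enriched fraction, where only 2 pairs exist, and moved no other count of calls by over 1.5 times. Among comparisons with 3 pairs, the numbers paired the libraries only for dox in iMcam and between fractions without dox. With 2 pairs, pairing was not judged, and in the myoblast-enriched fraction the correlations of those pairs were 0.378 and 0.538.

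These log2 differences, none past the threshold, changed sign, with their range over the libraries left out. With dox at 48 h: Lrp4 -0.16 to 0.0048, Chrnb1 -0.022 to 0.012. At 120 h in whole cultures: Rapsn -0.38 to 0.22, Chrne -0.65 to 0.050, Lrp4 -0.18 to 0.0092, Chrnb1 -0.030 to 0.021 (-0.010 with no filter). In the myoblast-enriched fraction: Chrna1 -0.29 to 0.035, Lrp4 -0.27 to 0.15 (0.19 with the block). In the myotube-enriched fraction: Rapsn -0.25 to 0.55, Chrne -1.13 to 2.47, Chrnd -1.09 to 0.21, Chrng -0.48 to 0.30, Agrn -0.22 to 0.70, Dok7 -0.44 to 0.18. Over time: Chrnb1 from 0 to 24 h -0.13 to 0.043 and Chrng from 48 to 120 h -0.081 to 0.40 without dox, Chrng from 0 to 24 h -0.37 to 0.015 with dox. Between fractions without dox: Agrn -0.078 to 0.40, Dok7 -0.24 to 0.14. Between fractions with dox: Rapsn -0.52 to 0.25 (-0.0021 with DESeq2, -0.060 with no filter, -0.51 with the block, -0.025 in one fit), Chrnb1 -0.47 to 0.29 (0.0067 with the block), Musk -0.011 to 1.05. Differences of dox effects: Chrna1 between 24 and 0 h -0.013 to 0.059, Agrn between iMcam and iCdh23 -0.13 to 0.10, and between fractions Chrnd -0.64 to 0.69, Chrng -0.048 to 0.76, Chrna1 -0.90 to 0.0014. The causes were not tested. Chrne had 0 to 7 counts per library up to 48 h, and libraries of the myotube-enriched fraction with dox spread widely.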
